A study of Arabidopsis thaliana with 6 samples.

Results

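The genes described here are RHL1 (AT1G48380), TOP6B (AT3G20780), SPO11-3 (AT5G02820), BIN4 (AT5G24630) and ILP1 (AT5G08550), chosen by gene ID as genes needed for higher rounds of endoreduplication. They are 5 of the 21125 genes listed for Arabidopsis thaliana root tips, and all 5 passed the filter on low values. The libraries came from plants carrying the scl28-3 mutation (3 libraries) and from wild-type plants (3 libraries), and the question was what loss of SCL28, a GRAS-family transcription factor, does to root-tip transcripts. Plants were 6 days old and were grown under constant light at 21 °C on sucrose medium, and each library pooled about 300 tips of about 2 mm, so cells of the meristem and of the zone above it were mixed. The labels give no background accession for the lines and no description of the lesion in scl28-3.

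Endoreduplication is the repeated copying of the nuclear genome without division, and in the Arabidopsis root it accompanies the exit of cells from the meristem and their elongation. Topoisomerase VI passes a DNA duplex through a transient break in another and so removes tangles between copied DNA. In plants it is built from SPO11-3 (also named RHL2 or BIN5), the A subunit that cuts DNA, and TOP6B (RHL3, HYP6 or BIN3), the ATP-binding B subunit, with RHL1 and BIN4 as DNA-binding partners found in plants. Arabidopsis mutants of these 4 genes are dwarfs with small cells of low ploidy and few or no root hairs. ILP1 is no part of that complex. It is known as a repressor of A2-type cyclin genes and as a partner of NTR1 in taking spliceosomes apart. Overexpression of ILP1 raises ploidy.

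In the RefSeq annotation of TAIR10.1, RHL1 occupies bases 17876989 to 17879270 of chromosome 1 (minus strand) and TOP6B bases 7263900 to 7268750 of chromosome 3 (minus strand). The other genes lie on chromosome 5. SPO11-3 spans 642554 to 644394 (plus strand), ILP1 spans 2765642 to 2770282 (minus strand) and BIN4 spans 8432384 to 8436193 (minus strand). Their exons sum to 1876 bases for RHL1, 2390 for TOP6B, 1659 for SPO11-3, 2058 for BIN4 and 3066 for ILP1. SPO11-3 has 2 exon blocks, whereas TOP6B is split into 19.

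The promoters were searched for sequence words that the choice of these genes did not use. Windows from 250 bases before to 50 after the annotated start were read on both strands for TTTCCCGC and TTTGGCGC (sites of E2F, the S-phase factors), AACGG (the core of the mitosis-specific activator element), AAACCCTA (telo box), and TGGGCC and TGGGCT (site II elements). No match overlapped another. SPO11-3 held 4 matches, BIN4 held 2, RHL1 held 1, and TOP6B and ILP1 held 0. The SPO11-3 stretches are shown because this gene had the most matches and was the only member with an E2F word, and BIN4 because its first site II word spans the start. Capitals mark E2F and site II words, each strand is that of the gene, and the letters are from the TAIR10.1 genome of RefSeq.
SPO11-3, before the start, chr5:642304-642553, plus strand: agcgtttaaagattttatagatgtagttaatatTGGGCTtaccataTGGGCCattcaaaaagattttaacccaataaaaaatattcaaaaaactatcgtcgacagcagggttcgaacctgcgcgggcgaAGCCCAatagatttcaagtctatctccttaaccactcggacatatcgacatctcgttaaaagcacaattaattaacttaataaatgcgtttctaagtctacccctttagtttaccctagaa
SPO11-3, first exon, chr5:642574-642603, plus strand: tgacctaaagggtaaatTTTCCCGCcattg
BIN4, around the start, chr5:8436179-8436208, minus strand: attggcatatcTGGGCTaatgttaattttt

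The E2F word TTTCCCGC began at base 38 of the first exon of SPO11-3, upstream of the start codon. Of the 20237 protein-coding genes listed here, 0.885% held this word in the same window, and 1.34% held either of the E2F words searched. Site II words were common, with TGGGCC in 18.7% and TGGGCT in 16.3% of those windows. The last site II word before the SPO11-3 start stood inside a tRNA gene on the other strand, AT5G02815, from 642400 to 642481. The match in RHL1 was AACGG, which 26.3% of windows held, while the telo box was in 5.63% of all windows and in none of these 5. ILP1 has no annotated leader, so its window surrounds the start codon and may miss its true promoter.

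Values are in CPM, read counts scaled to an equal library total, as the authors deposited them, and each library's depth was recovered from them as whole reads. Depth ran from 13996534 to 16780424 reads in scl28-3 and from 10399899 to 11572901 in wild type, and the 5 genes had between 142 and 735 reads per library, with counting errors between 3.84% and 7.45% of the value. SCL28 was at 17.72, 14.92 and 13.65 CPM in scl28-3 libraries 1 to 3, against 44.5, 42.59 and 42.38 CPM in wild type, a log2 difference of -1.48 ± 0.12 (SE; adjusted p = 0.0022 in limma), so transcript from the locus was reduced and not absent. Wild-type library 1 stood apart on the first principal component (44.3% of the variance), at -35.6, while the other libraries lay between -9.44 and 19.5. No marker of the lists used was at 0 in all libraries. Root cap markers (3 genes) summed to between 33.79 and 51.93 CPM in scl28-3 and between 34.52 and 50.9 in wild type, and dividing-cell markers (6 genes) to between 192.29 and 230.13 CPM in scl28-3 and between 181.37 and 230.53 in wild type. Photosynthesis genes of green shoots (3 genes) summed to between 10.58 and 19.31 CPM in scl28-3 and between 10.63 and 18.46 in wild type.

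None of the 5 genes passed the test between scl28-3 and wild type, and for each the CPM ranges overlapped. With limma on log2(CPM + 0.5), adjusted over 17879 tested genes at a threshold of 0.05, 0 of 5 were called, and edgeR's quasi-likelihood test also called 0. Over all tested genes limma called 0.0727%, all of them lower in scl28-3, and edgeR called 0.0783%, so 0 of 5 is the count the background would give. An unadjusted limma p under 0.05 was found for 0 of 5 genes and for 4.37% of all tested genes. Ranges that did not overlap were found for 0 of 5 genes and for 10.4% of tested genes (6.19% higher and 4.22% lower in scl28-3). Of the 5 log2 fold changes 4 were above 0, with a median of 0.07, beside 52.1% above 0 and a median of 0.01 over all tested genes. With wild-type library 1 left out, which stood apart, they were 0.24 for RHL1, 0.09 for TOP6B, 0.10 for SPO11-3, -0.11 for BIN4 and 0.22 for ILP1, and again limma called 0 of 5. In tissue pools such as these, fewer cells expressing a gene and less transcript per cell cannot be told apart.

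**Figure D1:**
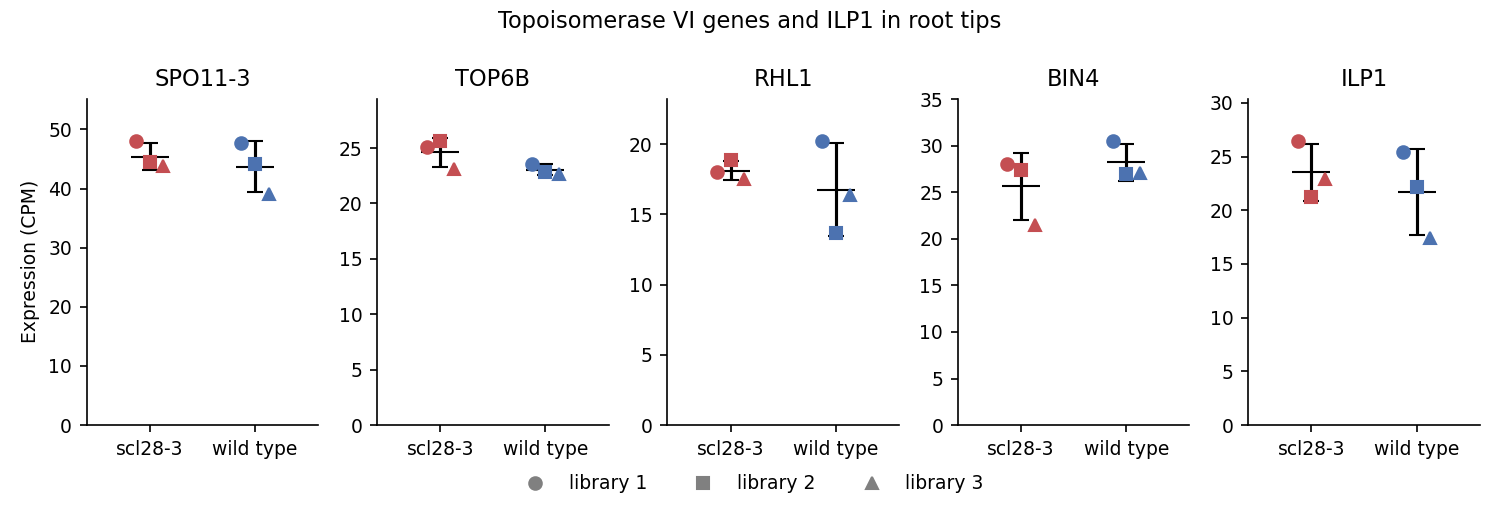
Expression in CPM (vertical axes, each from 0 and with its own scale) of the 5 genes in scl28-3 (red, left) and wild type (blue, right). Each symbol is a library, with the library number given by its shape, and bars are mean ± SD over 3 libraries; the genotypes overlap in every panel, and relative to the mean the spread is widest for RHL1 in wild type, at 19.7%.

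The catalytic pair had the smallest fitted differences of the 5 genes. SPO11-3, the cutting subunit, was at 48.01, 44.41 and 43.8 CPM in scl28-3 and at 47.78, 44.23 and 39.13 CPM in wild type. Library 1 of each genotype was the highest and the values otherwise interleaved. The means were 45.4 ± 2.28 CPM in scl28-3 and 43.7 ± 4.35 CPM in wild type (SD, n = 3 each). Limma estimated the log2 fold change as 0.04 ± 0.11 (SE), with adjusted p = 0.998 and a 95% confidence interval from 0.870-fold to 1.21-fold. Its sign turned when scl28-3 library 1 (-0.01) or wild-type library 3 (-0.05) was left out.

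TOP6B, the ATP-binding subunit, was at 25.08, 25.62 and 23.12 CPM in scl28-3 and at 23.59, 22.88 and 22.64 CPM in wild type. All 3 wild-type values lay close together, and only scl28-3 library 3 fell among them. TOP6B averaged 24.6 ± 1.32 CPM in scl28-3 and 23.0 ± 0.494 CPM in wild type, and the log2 difference was 0.07 ± 0.10 (adjusted p = 0.995 in limma). Its spread in wild type, 2.14% of the mean, was below the 6.26% that counting alone gives for these reads. The confidence interval ran from 0.905-fold to 1.22-fold. TOP6B kept its sign when any library was left out, with no call in any of those fits.

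RHL1, a nuclear DNA-binding partner of the complex named for the hairless roots of its mutant, varied most among wild-type libraries. It was at 18, 18.86 and 17.52 CPM in scl28-3 and at 20.22, 13.65 and 16.41 CPM in wild type. The 3 scl28-3 values sat inside the wild-type range. The spread was 3.75% of the mean in scl28-3, below the counting error of 6.08%, and 19.7% in wild type, above the counting error of 7.45%. RHL1 averaged 18.1 ± 0.679 CPM in scl28-3 and 16.8 ± 3.30 CPM in wild type, so the log2 difference was 0.11 ± 0.14 (adjusted p = 0.995 in limma), and the interval ran from 0.868-fold to 1.34-fold. Without wild-type library 2 the log2 fold change was -0.01. RHL1 shares 474 bases with YSL8, a gene on the opposite strand that was at 21.86, 20.2 and 19.9 CPM in scl28-3 and at 22.29, 22.21 and 17.99 CPM in wild type. Whether counting used the strand is not given in the sources used here, and which gene those bases' reads came from is uncertain.

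BIN4, the other DNA-binding partner, was the only member with a mean below that of wild type. It was at 28.01, 27.45 and 21.45 CPM in scl28-3 and at 30.5, 27.02 and 27.11 CPM in wild type. The low value of scl28-3 library 3 set most of the difference. BIN4 averaged 25.6 ± 3.64 CPM in scl28-3 and 28.2 ± 1.98 CPM in wild type, and the log2 difference was -0.16 ± 0.13 (adjusted p = 0.995 in limma), with an interval from 0.733-fold to 1.09-fold. Without scl28-3 library 3 the log2 fold change was -0.04. In that library BIN4 was at 0.395 of SPO11-3 per kb of exons, against 0.470 and 0.498 in the other scl28-3 libraries and between 0.492 and 0.558 in wild type. These ratios are descriptions and were not tested. The other overlaps with opposite-strand genes are short, at 37 bases for TOP6B, 116 for SPO11-3, 31 for BIN4 and 93 for ILP1 with listed genes, beside 246 bases of ILP1 shared with AT5G01555, a noncoding RNA with no values here.

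ILP1 was at 26.43, 21.25 and 22.94 CPM in scl28-3 and at 25.4, 22.21 and 17.46 CPM in wild type. Library 1 was the highest of each genotype, and wild-type library 3 was the lowest of all 6. ILP1 averaged 23.5 ± 2.64 CPM in scl28-3 and 21.7 ± 3.995 CPM in wild type, and the log2 difference was 0.11 ± 0.15 (adjusted p = 0.995 in limma). Its spread was 11.2% of the mean in scl28-3 and 18.4% in wild type, both above the counting errors of 5.36% and 6.52%. The interval, from 0.850-fold to 1.37-fold, was the widest of the 5 genes on the log2 scale. Without wild-type library 3 its log2 fold change was -0.05.

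**Figure D2:**
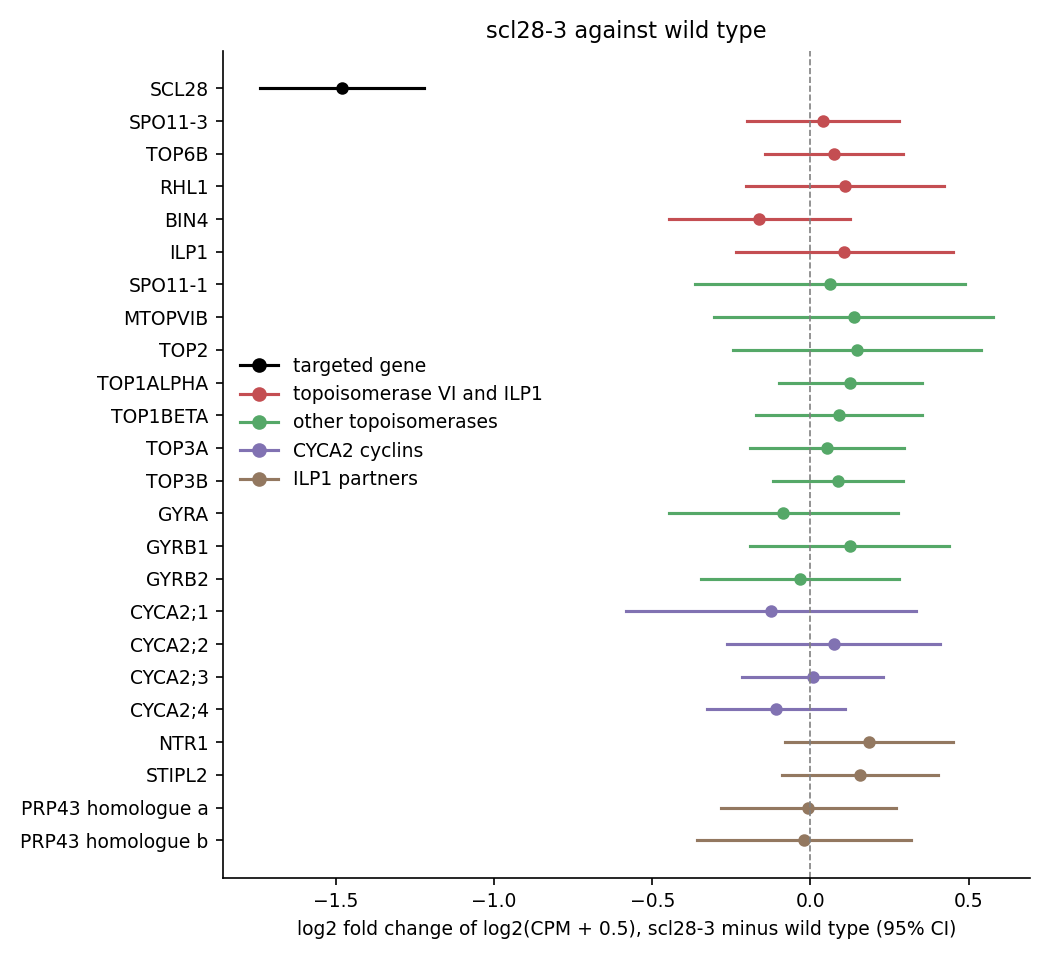
Log2 fold changes on the log2(CPM + 0.5) scale, scl28-3 minus wild type (horizontal axis), for SCL28 (black), the 5 genes (red), the tested members of the list of other topoisomerases (green), the CYCA2 cyclins (purple) and partners of ILP1 in spliceosome disassembly (brown). Points are limma estimates and lines are 95% confidence intervals; SCL28 lies at -1.48 and every other interval crosses 0.

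Levels between genes can be compared only per length, and the unit used is CPM per kb of annotated exons, over all 6 libraries. SPO11-3 was the highest at 26.9 ± 1.95 CPM per kb (SD, n = 6), with a range of 23.6 to 28.9 that no other member reached. BIN4 followed at 13.1 ± 1.45 (range 10.4 to 14.8), then TOP6B at 9.97 ± 0.517 (range 9.47 to 10.7) and RHL1 at 9.30 ± 1.20 (range 7.28 to 10.8). ILP1 was the lowest at 7.38 ± 1.04 (range 5.69 to 8.62). The ranges of BIN4 and TOP6B, of BIN4 and RHL1, of TOP6B and RHL1, and of RHL1 and ILP1 overlapped over the libraries. Within each library, however, BIN4 was above TOP6B and RHL1. RHL1 was above ILP1 within each library too, though barely in wild-type library 2 (7.28 and 7.24). Only TOP6B and RHL1 changed order, with RHL1 higher in wild-type library 1 (10.8 and 9.87 for TOP6B). Among the 21020 genes with a length, SPO11-3 stood at the 79.9th percentile and ILP1 at the 51.2nd, with a median of 7.05 CPM per kb over all of them.

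**Figure D3:**
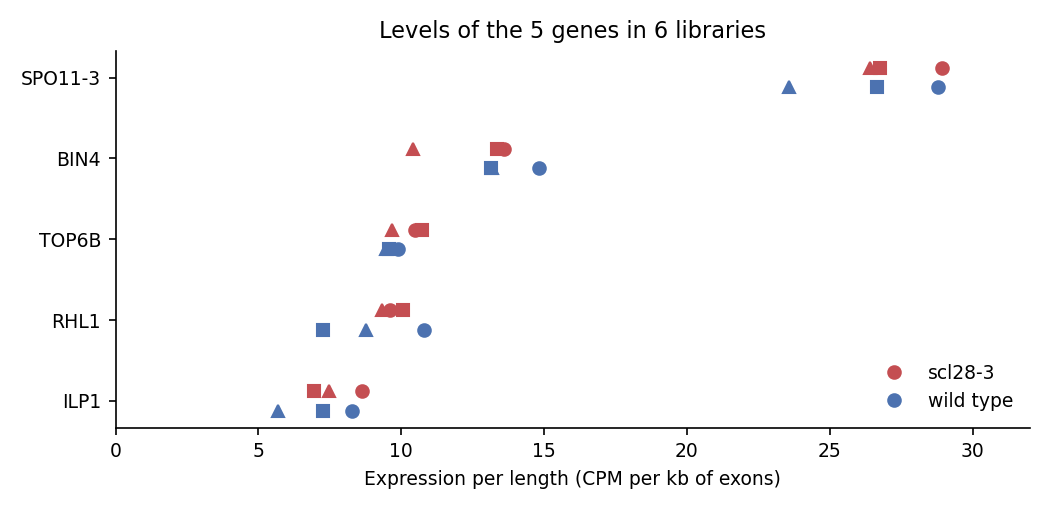
Expression in CPM per kb of annotated exons (horizontal axis, from 0) of the 5 genes, ordered by mean, in scl28-3 (red, upper row of each gene) and wild type (blue, lower row). Each symbol is a library, with circles, squares and triangles for libraries 1, 2 and 3; SPO11-3 lies between 23.6 and 28.9 CPM per kb and every other gene below 15.

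The A subunit message thus exceeded the B subunit message in each library. SPO11-3 per kb was 2.76, 2.50 and 2.73 times TOP6B in scl28-3 libraries 1 to 3 and 2.92, 2.78 and 2.49 times in wild type, with means of 2.66 ± 0.143 and 2.73 ± 0.219. These ratios overlapped between genotypes and rest on the annotated lengths. With coding length in place of exon length, SPO11-3 stayed highest at 34.7 CPM per kb and ILP1 lowest at 8.29, while RHL1 (15.0) and TOP6B (11.8) changed places with ranges that still overlapped.

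The meiotic relatives of the catalytic pair were far lower in the same tips. SPO11-1 and SPO11-2, A-subunit homologues that make the breaks of meiotic recombination, ranged from 1.21 to 1.74 and from 0.156 to 0.527 CPM per kb over the 6 libraries. MTOPVIB, their partner resembling TOP6B, ranged from 0.713 to 1.11 CPM per kb. None of these ranges met those of SPO11-3 or TOP6B. SPO11-2 did not pass the filter, at 0.36, 0.84 and 0.66 CPM in scl28-3 and at 0.26, 0.58 and 0.88 CPM in wild type, where 3 reads correspond to between 0.179 and 0.288 CPM.

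No tested gene on the list of other topoisomerases and SPO11 relatives passed the test either. Of 11 genes on that list 10 were tested, and neither limma nor edgeR called any of them (0 and 0). Over all tested genes limma called 0.0727% and edgeR 0.0783%. None (0) of the 10 reached an unadjusted limma p of 0.05, against 4.37% of all tested genes. The log2 fold changes were above 0 for 8 of 10, with a median of 0.09. Over all tested genes 52.1% were above 0, with a median of 0.01, and the difference was not tested. The highest per kb were TOP1ALPHA (30.8), a topoisomerase I, GYRA (26.8), an organellar gyrase subunit, and TOP2 (21.9), the topoisomerase II that separates chromosomes. TOP2 was at 141.1, 104.01 and 101.66 CPM in scl28-3 and at 129.09, 96.25 and 84.85 CPM in wild type. Library 1 was again the highest in each genotype, and TOP2 had a log2 difference of 0.15 ± 0.17 (adjusted p = 0.995 in limma). TOP1ALPHA had a log2 fold change of 0.13 ± 0.10 and GYRA one of -0.09 ± 0.16. TOP1ALPHA lies beside its homologue TOP1BETA, and reads shared by their sequences may have been split or dropped between them. TOP3B, a topoisomerase III, was at 29.93, 29.84 and 32.66 CPM in scl28-3 and at 28.25, 29.42 and 28.08 CPM in wild type. Its ranges did not overlap, which makes 1 of 10 genes of the list, a share near the 10.4% of all tested genes.

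ILP1 is described as a repressor of the A2-type cyclins, which hold cells in the mitotic cycle. All 4 A2-type cyclin genes were tested and 0 passed limma or edgeR, where limma called 0.0727% and edgeR 0.0783% of all tested genes. An unadjusted limma p under 0.05 was found for 0 of 4, against 4.37% of all tested genes. These counts are what the background would give. Of the log2 fold changes 2 were above 0, with a median of -0.05. CYCA2;3, the highest per kb at 16.7, was at 34.65, 32.02 and 36.77 CPM in scl28-3 and at 35.94, 33.94 and 31.68 CPM in wild type, with a log2 fold change of 0.01 ± 0.10. CYCA2;4 had a log2 fold change of -0.11 ± 0.10 and CYCA2;2 one of 0.07 ± 0.15. The summed CYCA2 level ran from 66.08 to 70.92 CPM in scl28-3 and from 65.98 to 71.2 CPM in wild type.

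The list of ILP1 partners in spliceosome disassembly had 4 tested genes, with a median log2 fold change of 0.07. Of these 0 passed limma or edgeR, which called 0.0727% and 0.0783% of all tested genes. An unadjusted limma p of 0.05 was reached by 0 of 4, against 4.37% of all tested genes, so these counts are at the background. NTR1 was at 25.72, 23.29 and 22.58 CPM in scl28-3 and at 23.68, 18.27 and 20.27 CPM in wild type, and the log2 difference was 0.19 ± 0.12 (adjusted p = 0.995 in limma). Only wild-type library 1 reached into the scl28-3 range. STIPL2, the homologue of NTR1, was at 11.22, 11.96 and 11.62 CPM in scl28-3 and at 9.94, 9.71 and 11.06 CPM in wild type. It was the 1 gene of these 4 whose ranges did not overlap, where 10.4% of all tested genes had such ranges, and it was chosen after its values were seen. AT2G47250 and AT3G62310, which encode homologues of the yeast helicase Prp43, were higher per kb (36.9 and 32.7) than NTR1 (8.13), and both had log2 fold changes near 0, at -0.01 ± 0.12 and -0.02 ± 0.15.

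Among 16 other regulators of the endocycle, all tested, 0 passed limma or edgeR and 1 reached an unadjusted p of 0.05, a share near the 4.37% of all tested genes, with 8 log2 fold changes above 0 and a median of -0.01. That gene, named after its values were seen, was CCS52A2, an activator of the anaphase-promoting complex. It was at 8.72, 8.73 and 7.75 CPM in scl28-3 and at 6.05, 7.31 and 6.58 CPM in wild type, so its ranges did not overlap, as for 1 of 16 genes of the list and 10.4% of all tested genes, with a log2 difference of 0.30 ± 0.13 and an adjusted p of 0.995 in limma. The highest per kb were RPT2A (146), a proteasome subunit, SIM (60.8), a CDK inhibitor, and GTL1 (46.3), a trihelix repressor of the endocycle in Arabidopsis trichomes. Their log2 fold changes were -0.02 ± 0.09, -0.02 ± 0.15 and 0.09 ± 0.09.

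The pair with the highest Pearson correlation across libraries was SPO11-3 and ILP1, and it did not pass the test after adjustment. By Spearman's rho SPO11-3 and BIN4 were higher. Over the 6 libraries, on the log2(CPM + 0.5) scale after division by TMM factors, Pearson's r was 0.963 (exact permutation p = 0.00833, two-sided) and Spearman's rho 0.886 (exact permutation p = 0.0333). After Benjamini-Hochberg adjustment over the 10 pairs of members these became 0.0833 and 0.167. Without wild-type libraries 1 and 3, the ones farthest from the median of SPO11-3 on that scale, r was 0.820. The other 9 pairs had r between 0.255 and 0.645 with adjusted p of 0.578 or more, and the rho of SPO11-3 and BIN4 was 0.943 (adjusted exact permutation p = 0.167). The 6 libraries hold both genotypes. Within genotypes r for SPO11-3 and ILP1 was 0.840 in scl28-3 and 1.00 in wild type, over 3 libraries each, which is too few for a test.

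The summed level of the 6 dividing-cell markers had the same highest library in each genotype, at 230.13, 202.82 and 192.29 CPM in scl28-3 libraries 1 to 3 and at 230.53, 196.25 and 181.37 CPM in wild type. The summed level of the 9 endodermis markers was 328.08, 325.35 and 480.06 CPM in scl28-3 and 171.51, 302.97 and 401.36 CPM in wild type, lowest in wild-type library 1. In both genotypes library 1 thus held the highest ILP1, SPO11-3 and BIN4 levels and the most dividing-cell marker transcript. RHL1 (20.22 CPM) and TOP6B (23.59 CPM) were also highest in library 1 in wild type. In scl28-3 both were highest in library 2, at 18.86 and 25.62 CPM. The part of tip composition in these library patterns was not tested.

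**Figure D4:**
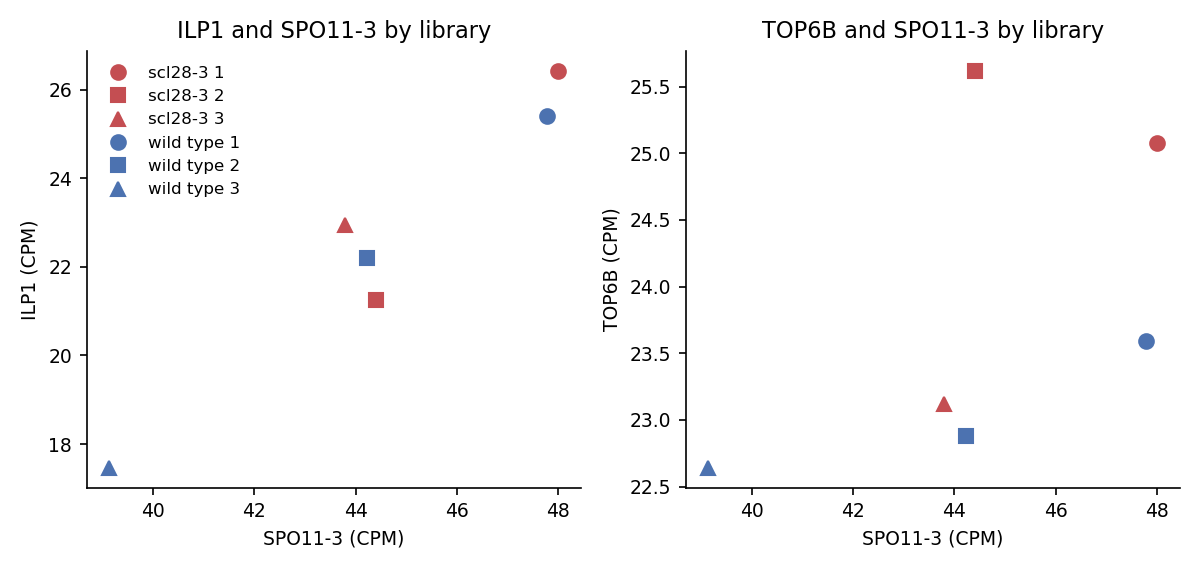
Expression of ILP1 (left panel, vertical axis) and TOP6B (right panel, vertical axis) against SPO11-3 (horizontal axes) in CPM, with one symbol per library, scl28-3 in red and wild type in blue; axes do not start at 0. ILP1 and SPO11-3 are both lowest in wild-type library 3 and both highest in library 1 of each genotype, whereas TOP6B is highest in scl28-3 library 2 at 25.62 CPM.

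The genes most like TOP6B and ILP1 in their library pattern were found by the root mean square difference of centred log2 levels over the 6 libraries, among 16701 genes with a mean log2 level of at least 1. For TOP6B they were RPL3P, a plastid ribosomal protein, at 0.0165, AT1G14570 (PUX7), a UBX-domain protein, at 0.0183, and KUP3, a potassium transporter, at 0.0200. For ILP1 they were SDG16, a SET-domain protein, at 0.0355, AT1G79950, annotated as a RAD3-like helicase, at 0.0407, and AT2G34750, annotated as an RNA polymerase I initiation factor, at 0.0451. SDG16 was at 28.79, 23.51 and 23.42 CPM in scl28-3 and at 27.39, 24.13 and 18.87 CPM in wild type. None of the 6 was called by limma, and their log2 fold changes ran from 0.03 to 0.11. They were chosen for likeness in these same values. Fold changes near those of TOP6B and ILP1, and the lack of calls, thus follow from the choice and are no separate result. By the same measure the closest pair of members was SPO11-3 and TOP6B, at 0.0827, and the farthest was BIN4 and ILP1, at 0.223. The measure is also small where both genes vary little. TOP6B had a spread of 5.35% in scl28-3 and 2.14% in wild type, near or below its counting errors of 5.22% and 6.26%. SPO11-3 had r of 0.645 with TOP6B and 0.963 with ILP1. Likeness to TOP6B is thus no measure of a shared pattern.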

How the data were processed

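RNA was measured in 6 root-tip libraries, 3 per genotype. The authors deposited CPM values, per the file headers, rounded to 2 decimals and scaled to the library total. The TAIR10 build, HTSeq 0.6.1p1, HISAT2 2.0.0 and edgeR appear in the submitters' processing notes, and the annotation release, edgeR version, strand setting and filter are not given in the sources used here. Low CPM values were whole multiples of the value of 1 read, and dividing by it gave whole reads, within 0.1 read, for at least 99.995% of values in each library.

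CPM divided by TMM factors were tested as log2(CPM + 0.5) with limma 3.58.1 (eBayes with a trend, R 4.3.3), two-sided with Benjamini-Hochberg adjustment. The + 0.5 slightly understates changes of low genes. Genes were kept by filterByExpr (minimum count 10) on recovered reads, which left 17879. The quasi-likelihood test of edgeR 4.0.16, which called 14 genes, and DESeq2 1.42.0, which called 18, were run on recovered reads as alternatives. Other alternatives covered limma-voom, scaling, filters, pseudocounts, a replicate block and leaving out each library. The steps were tested on simulated data. Libraries of a genotype differed by more than counting noise (chi-square per degree of freedom 4.73 to 15.9). The p-values weigh the genotype difference against the spread between these pooled libraries.

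Exon lengths and promoters came from the RefSeq annotation of TAIR10.1, which matched 21020 of the 21125 gene IDs. CPM per kb divides by the summed length of all annotated exons. Python 3.11.15 read the files.

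The members and gene lists were chosen with earlier results of these data known. Besides the 5 genes and SCL28, the text names called members of each list, its 3 highest tested members per kb, and the 3 genes most like TOP6B and ILP1. SPO11-1, SPO11-2, MTOPVIB, TOP1BETA and YSL8 are named outside that rule as relatives or neighbours, and CCS52A2, TOP3B and STIPL2 after their values were seen. Markers covered endodermis, root hair, root cap, xylem, dividing cells and green shoot.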

Additional observations from a re-analysis of the deposited data

How the results depend on the processing

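No alternative called any of the 5 genes, over 85 combinations of gene and setting, with a lowest adjusted p of 0.533. When a library was left out, log2 fold changes ran from -0.012 to 0.24 for RHL1, from 0.04 to 0.12 for TOP6B, from -0.054 to 0.10 for SPO11-3, from -0.23 to -0.04 for BIN4 and from -0.054 to 0.22 for ILP1. Other settings left every sign of the 5 genes as it was.

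Genes called lower over the whole table (13) numbered 18 without wild-type library 1 and 5 or 6 without any other single library, and the cause was not tested. Genes called higher stayed at 0 in those fits. With a replicate block, sample numbers as blocks, 40 genes were called lower and 24 higher, and none of the 5 members was among them. Libraries share these numbers without a stated pairing. Their deviations from the genotype means correlated at 0.44 for number 1, 0.044 for number 2 and 0.50 for number 3, and wild-type library 2 did not correlate best with its own number. Genes at an unadjusted p under 0.05 (781) numbered 1966 with the block, 482 with DESeq2, 393 on leaving out scl28-3 library 3, 1258 and 1764 on leaving out wild-type libraries 3 and 1, and between 590 and 710 when any other was dropped.

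Among other named genes, the sign turned for CYCA2;3 with upper quartile scaling (-0.0029) and for AT2G47250 with no TMM (0.012). Leaving out a library gave -0.056 to 0.053 for CYCA2;3, -0.12 to 0.075 for AT2G47250, -0.16 to 0.088 for AT3G62310, -0.25 to 0.037 for GYRA, -0.0098 to 0.31 for TOP2, -0.22 to 0.082 for SIM, -0.072 to 0.018 for RPT2A, -0.068 to 0.21 for SDG16, -0.017 to 0.21 for AT1G79950 and -0.13 to 0.14 for AT2G34750. None of these genes was called under any setting. With 3 libraries per genotype and 142 to 735 reads per value, changes of the 5 genes within the printed confidence intervals are not excluded.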

Other observations

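Markers of root hairs, a cell type that topoisomerase VI mutants form poorly, and of the xylem and endodermis, which differentiate above the meristem, were also measured. All 6 root hair markers had log2 fold changes above 0, with a median of 0.24, where 52.1% of all tested genes were above 0. Of these, 0 passed limma or edgeR and 1 reached an unadjusted p of 0.05, against 4.37% of all tested genes. Their summed level ran from 314.42 to 383.52 CPM in scl28-3 and from 263.34 to 325.45 CPM in wild type. Without wild-type library 1, a setting chosen after seeing the data, 6 of 6 were above 0 with a median of 0.18, where 50.2% of all tested genes were above 0. In that fit 1 of 6 reached an unadjusted limma p of 0.05, against 9.72% of all tested genes. Dividing-cell markers went from 3 of 6 above 0 (median 0.005) to 6 of 6 (median 0.07) in the same fit. Root cap markers were above 0 in 2 of 3 and green shoot markers in 0 of 3.

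The medians of the endodermis and xylem sets depended on wild-type library 1. With all libraries, 9 of 9 endodermis markers were above 0 with a median of 0.43, and 6 of 6 xylem markers with a median of 0.16. Without that library 7 of 9 endodermis markers were above 0 with a median of 0.07, and 3 of 6 xylem markers with a median of -0.01. Limma and edgeR called 0 of them with all libraries, and 2 endodermis markers and 0 xylem markers reached an unadjusted p of 0.05, against 4.37% of all tested genes. CPM ranges did not overlap for 2 of 9 endodermis markers and 0 of 6 xylem markers, beside 10.4% of all tested genes. Without wild-type library 1, 1 endodermis marker and 0 xylem markers reached an unadjusted limma p of 0.05, against 9.72% of all tested genes. The summed xylem level was 79.29, 79.45 and 106.55 CPM in scl28-3 and 63.59, 81.35 and 90.03 CPM in wild type.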
